A study of Mus musculus with 6 samples.

Results

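The Ikaros family comprises Ikzf1, Ikzf2, Ikzf3, Ikzf4 and Ikzf5, and its expression was examined in granulocyte/macrophage progenitors (GMPs), marrow precursors of the granulocyte and monocyte lineages. Its members were chosen by name: every probe set whose annotated gene symbol, current or older, was 1 of these 5 genes was taken, which gave 13 of 45037 probe sets, for 5 of the 18193 genes that the arrays name. The rule goes by name, but the family was singled out with results of these arrays in view, so the tests on its members are not independent evidence. Ikzf1 and Ikzf5 had 2 probe sets each, and Ikzf2, Ikzf3 and Ikzf4 had 3 each. RNA came from GMPs sorted from mice deficient in IRF4 as well as IRF8 (IRF4/8 DKO), mice deficient in IRF8 only (IRF8 KO) and wild-type mice (WT), all of the BL6 strain, with 1 male and 1 female mouse and so 2 Affymetrix Mouse Genome 430 2.0 arrays per genotype. The mice were 16 and 16 weeks old in IRF4/8 DKO, 12 (female) and 22 (male) weeks in IRF8 KO, and 12 (male) and 19 (female) weeks in WT. IRF8 and IRF4 belong to the interferon regulatory factors, and the sources used here do not state how their deletions were made or in which cells.

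Ikaros family proteins are zinc finger transcription factors. One group of fingers near the N-terminus contacts DNA, and another at the C-terminus joins family members into dimers, so the level of one member can bear on what another does. Ikaros, encoded by Ikzf1, is known for its role in lymphocyte development, and recruits the NuRD chromatin remodelling complex to its sites. Helios (Ikzf2) is known from blood stem cells and regulatory T cells, Aiolos (Ikzf3) from B and plasma cells, Eos (Ikzf4) from regulatory T cells, and Pegasus (Ikzf5) is the most divergent member and is broadly expressed.

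Values are the authors' normalized intensities on a linear scale, and a level of 1 probe set cannot be set against that of another. Testing with limma required at least 2 of the 6 arrays above their own 40th percentile, which was an intensity of 19.4 to 25.9. Of the 13 family probe sets 9 were tested: both of Ikzf1, all 3 of Ikzf2, 1 of Ikzf3, 1 of Ikzf4 and both of Ikzf5. Fold changes are differences of log2(intensity + 10.5), which understates the change of low genes, and a call is an adjusted p under 0.05 over all 29783 tested probe sets. The p-values rest on the spread between 2 mice per genotype, pooled over the 3 genotypes and moderated by limma across probe sets. The mice of a genotype differ in sex, and in WT and IRF8 KO also in age, so that spread includes these differences.

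Genes of the progenitor label were examined first. Their signal alone cannot check that label, since no other sorted cell type was measured for comparison. The neutrophil genes S100a8 and S100a9 also read 4031 or more on every array. All 12 GMP genes examined read 440.3 or more on every array, led by Mpo (myeloperoxidase), at 14312 and 15417 in IRF4/8 DKO, 13264 and 13216 in IRF8 KO, and 12946 and 14581 in WT. Cd34, which codes for a surface protein of the sort gate, read 590.3 and 508.7 in IRF4/8 DKO and 440.3 and 668.6 in IRF8 KO, against 1747 and 1401 in WT, and did not pass the test (limma adjusted p = 0.213 and 0.162 against WT). Fcgr3, from the same list, went the other way. It read 2516 and 5863 in IRF4/8 DKO and 2618 and 6315 in IRF8 KO, against 1090 and 1259 in WT. It did not pass either (limma adjusted p = 0.271 and 0.177 against WT). Kit arrays overlapped WT in both. Of the 12 genes, 11 were higher than WT in IRF4/8 DKO and 8 in IRF8 KO, and 0 passed the test. Irf8 was not lower on the knockout arrays: its first probe set read 2611 and 4778 in IRF4/8 DKO and 3811 and 2602 in IRF8 KO, against 2588 and 3052 in WT. Its second probe set read 933.7 and 1900 in IRF4/8 DKO and 1333 and 1131 in IRF8 KO, against 506.9 and 704.5 in WT. The first Irf4 probe set read 65.99 and 54.64 in IRF4/8 DKO and 13.8 and 7.66 in IRF8 KO, against 32.1 and 23.5 in WT. It was thus higher on the arrays labelled IRF4-deficient than on all others, without passing the test (log2 fold change 0.89 against WT, limma adjusted p = 0.534, and 1.75 against IRF8 KO, limma adjusted p = 0.482). The other Irf4 probe set read 11.8 and 20.2 in IRF4/8 DKO and 29.7 and 14.1 in IRF8 KO, against 33.1 and 16.8 in WT, with overlapping arrays. The sources used here do not state whether any of these probe sets target the deleted sequence, so they do not check the genotypes, which are given here as labelled.

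Ikzf2, the Helios gene, had the largest differences of the family in IRF4/8 DKO, and all 3 of its probe sets were lower in both knockout genotypes than in WT. Probe set 1437542_at, the one with the highest level, read 26.2 and 16.7 in IRF4/8 DKO and 66.2 and 34.6 in IRF8 KO, against 404.2 and 290.7 in WT. Probe set 1421643_at read 11.1 and 18.6 in IRF4/8 DKO and 18.5 and 8.19 in IRF8 KO, against 141.7 and 79.9 in WT. Probe set 1456956_at read 2.41 and 6.62 in IRF4/8 DKO and 14.8 and 10.9 in IRF8 KO, against 166.3 and 77.97 in WT. No knockout array reached the lower WT array on any of the 3 probe sets, and the WT signal was higher on replicate 1 (male) than on replicate 2 (female) for each.

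**Figure D1:**
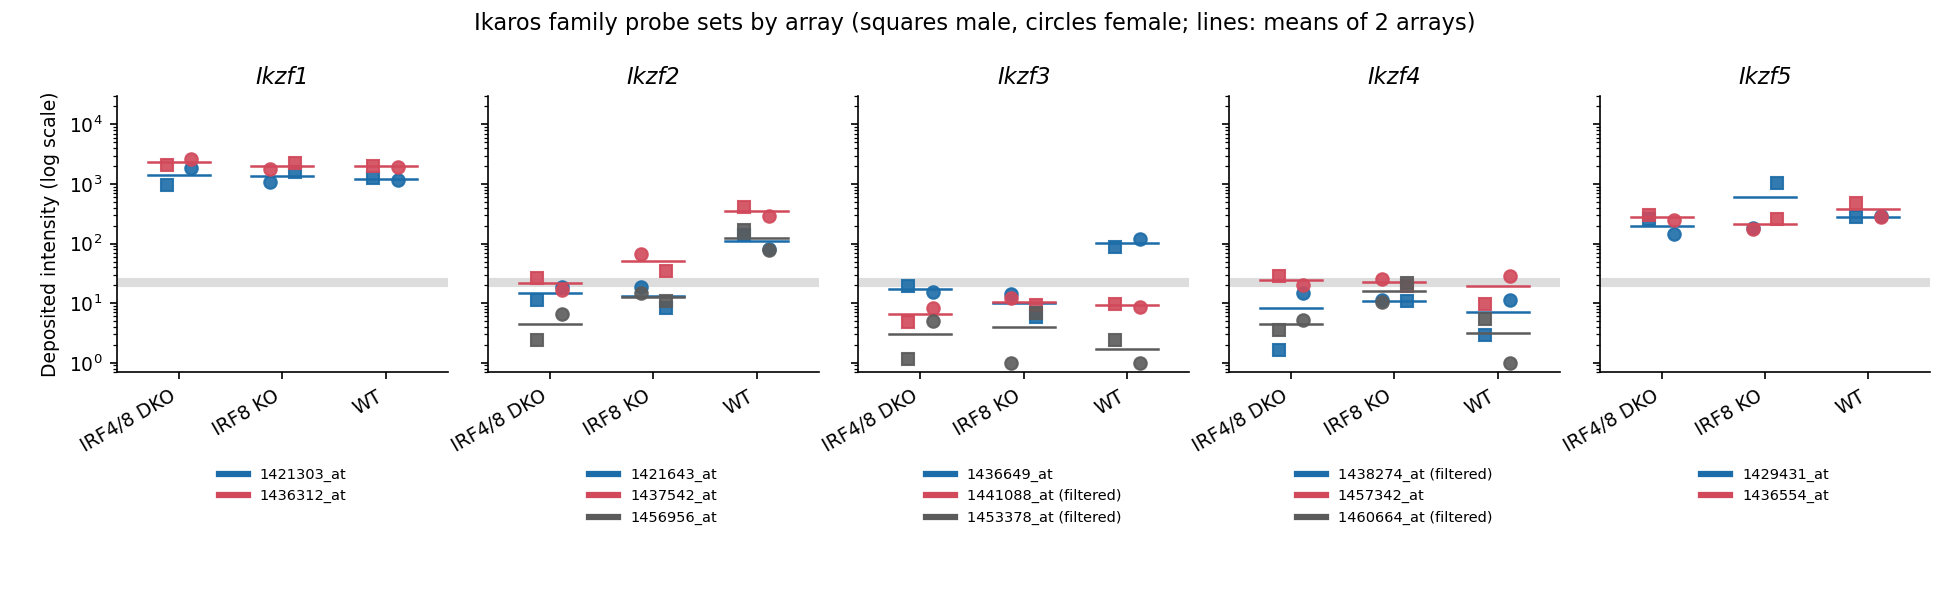
Deposited intensity on a log axis for the 13 probe sets of the 5 genes, with 1 point per array (squares male, circles female), a line at the mean of the 2 arrays of a genotype, and a grey band over the range of the 40th percentile of the arrays. The 3 Ikzf2 probe sets and Ikzf3 probe set 1436649_at lie above the band in WT and near or below it in most knockout arrays, while both Ikzf1 probe sets read 961.3 or more on every array.

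In IRF4/8 DKO against WT, 2 of the 3 Ikzf2 probe sets fell. Probe set 1437542_at was 11.2-fold lower (log2 fold change -3.48 ± 0.45 SE, 95% interval -4.51 to -2.46, limma adjusted p = 0.0285), and 1456956_at was 8.41-fold lower (-3.07 ± 0.44 SE, limma adjusted p = 0.0407). Probe set 1421643_at had a log2 fold change of -2.22 (95% interval -3.23 to -1.22) and did not pass (limma adjusted p = 0.109). The same test called 0.299% of all tested probe sets, 0.208% in the lower direction, and arrays did not overlap, with the knockout lower, for 25.3% of them. Probe sets 1421643_at and 1456956_at entered the test only through the WT arrays, where they are high, so a count over the tested members is not support for a difference. The IRF4/8 DKO mean of 1456956_at (4.52) lay below the pseudocount of 10.5, and with the pseudocount of 39.23 its log2 fold change was -1.83 (limma adjusted p = 0.0514).

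Which probe sets passed depended on the libraries and on the model. Without WT replicate 1, WT replicate 2, IRF4/8 DKO replicate 1 or IRF4/8 DKO replicate 2, no Ikzf2 probe set was called, but these fits called 0% of all tested probe sets, so the loss is not particular to Ikzf2. In them 1437542_at had log2 fold changes of -3.25, -3.71, -3.70 and -3.27 in that order. Without either IRF8 KO array, 4 family probe sets were called, the 3 of Ikzf2 and the 1 of Ikzf3, in fits that called 1.57% and 1.63% of all tested probe sets without replicate 1 and without replicate 2. With sex as a block, 1437542_at had the same log2 fold change of -3.48 and a limma adjusted p of 0.103, in a fit that called 0% of all tested probe sets. Without the filter on low values its limma adjusted p was 0.0602, with 0.0289% of all probe sets called. Between the male arrays the log2 difference of 1437542_at was -3.50, and between the female arrays -3.47.

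In IRF8 KO against WT, no probe set of the family passed the test, and the test called 0.0302% of all tested probe sets. At an unadjusted limma p under 0.05, 4 family probe sets were lower, the 3 of Ikzf2 and 1 of Ikzf3, as were 8.53% of all tested probe sets, and arrays did not overlap, with the knockout lower, for 25.9%. Probe set 1437542_at had a log2 fold change of -2.59 ± 0.45 SE (95% interval -3.61 to -1.56, limma adjusted p = 0.0898), 1421643_at -2.33 (limma adjusted p = 0.0988) and 1456956_at -2.43 (limma adjusted p = 0.0979). Without IRF8 KO replicate 1 all 3 passed, at limma adjusted p = 0.0122, 0.0195 and 0.0268 in the same order, in a fit that called 3.66% of all tested probe sets. Between the male arrays the log2 difference of 1437542_at was -3.20, and between the female arrays -1.97. Both comparisons use the same WT arrays.

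Ikzf3, the Aiolos gene, was measured above the filter by 1 probe set, 1436649_at, which also passed only through the WT arrays. It read 19.1 and 15.6 in IRF4/8 DKO and 14.5 and 5.87 in IRF8 KO, against 87.1 and 119.5 in WT. The knockout arrays did not overlap WT, and here WT replicate 2 (female) was the higher one, the reverse of Ikzf2. The log2 fold change was -2.02 ± 0.40 SE in IRF4/8 DKO (95% interval -2.93 to -1.10, limma adjusted p = 0.11) and -2.48 ± 0.40 SE in IRF8 KO (-3.39 to -1.56, limma adjusted p = 0.0823), so neither comparison passed. It passed in IRF4/8 DKO without IRF8 KO replicate 1 or 2 (limma adjusted p = 0.0226 and 0.0221) and in IRF8 KO without IRF8 KO replicate 1 (0.012), the fits with the larger shares of calls given above. The other Ikzf3 probe sets, 1441088_at and 1453378_at, read 1 to 12.1 over all 6 arrays, below the filter, and show no difference that could be read.

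**Figure D2:**
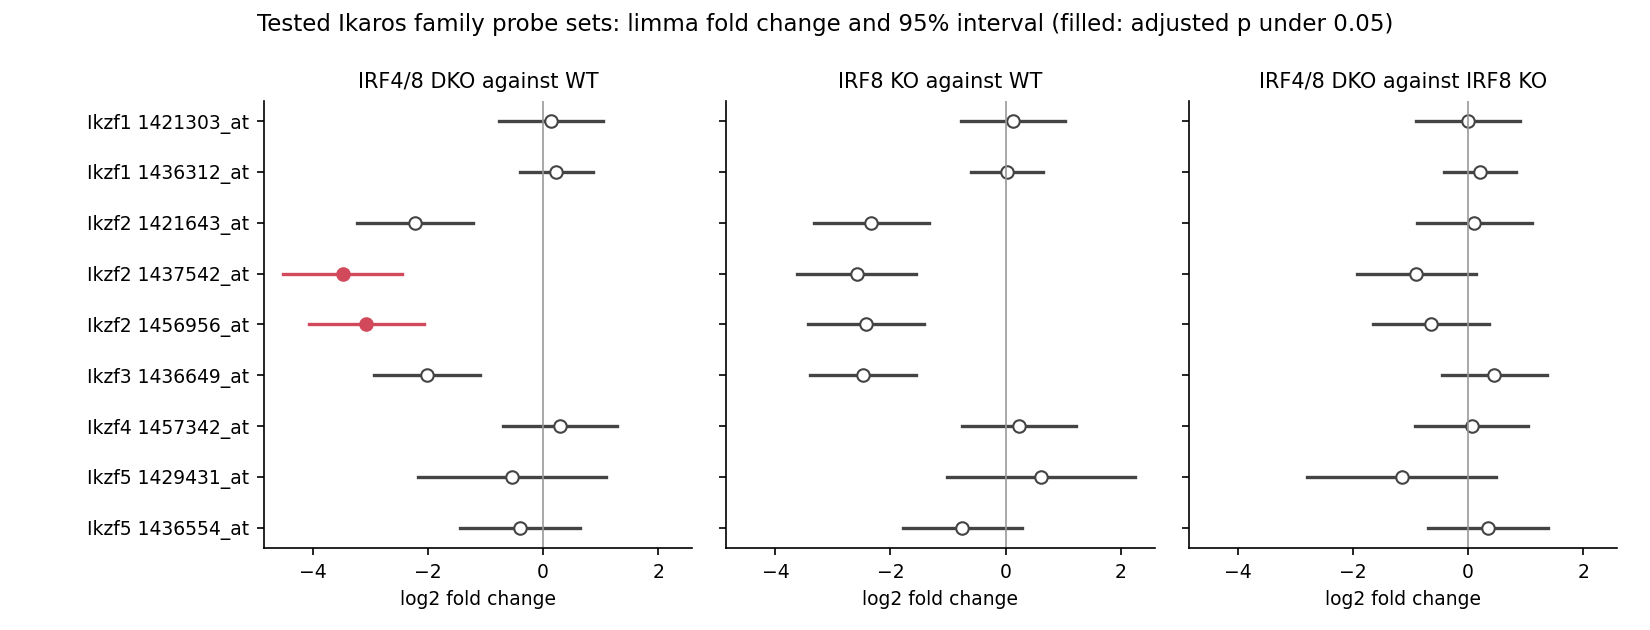
Log2 fold change and its 95% interval from limma for the 9 tested probe sets of the family, for each pair of genotypes, with filled points for an adjusted p under 0.05. The 3 Ikzf2 probe sets and the Ikzf3 probe set lie between -3.48 and -2.02 in both comparisons against WT, and the intervals of all other members include 0.

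Ikzf1, the Ikaros gene, gave high signal in every genotype. Probe set 1436312_at read 2086 and 2602 in IRF4/8 DKO, 1792 and 2257 in IRF8 KO, and 2017 and 1950 in WT. Probe set 1421303_at read 961.3 and 1843 in IRF4/8 DKO, 1097 and 1608 in IRF8 KO, and 1276 and 1152 in WT. Only the IRF4/8 DKO arrays of 1436312_at lay clear of WT, above it by a log2 fold change of 0.23 (95% interval -0.40 to 0.86, limma adjusted p = 0.875), a placement found for 18.3% of all tested probe sets. In IRF8 KO against WT the same probe set had a log2 fold change of 0.02 (95% interval -0.61 to 0.65), and -0.13 after quantile normalization. For 1421303_at the log2 fold change was 0.13 against WT in both knockout genotypes, with 95% intervals from -0.77 to 1.03.

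Start windows from RefSeq (GRCm38.p6) were matched to the family, and those used here belong to 2 of the 5 members, Ikzf1 and Ikzf5. They run from 250 bases before to 50 bases after an annotated start. Those of Ikzf1 are shown because it has a start in each of 2 windows of different base composition. G or C made up 81.3% of the first and 49.0% of the second. Capitals mark GGAA, the core letters bound by ETS factors such as PU.1, with which IRF8 and IRF4 pair on DNA, or TTCC on the other strand.
Ikzf1, chr11:11685675-11685974, plus strand: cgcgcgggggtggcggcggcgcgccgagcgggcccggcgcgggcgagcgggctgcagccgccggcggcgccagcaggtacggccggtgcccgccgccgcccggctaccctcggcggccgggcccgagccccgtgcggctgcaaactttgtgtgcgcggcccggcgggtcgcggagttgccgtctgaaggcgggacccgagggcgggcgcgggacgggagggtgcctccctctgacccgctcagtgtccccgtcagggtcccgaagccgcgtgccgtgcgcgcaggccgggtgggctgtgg
Ikzf1, chr11:11689927-11690226, plus strand: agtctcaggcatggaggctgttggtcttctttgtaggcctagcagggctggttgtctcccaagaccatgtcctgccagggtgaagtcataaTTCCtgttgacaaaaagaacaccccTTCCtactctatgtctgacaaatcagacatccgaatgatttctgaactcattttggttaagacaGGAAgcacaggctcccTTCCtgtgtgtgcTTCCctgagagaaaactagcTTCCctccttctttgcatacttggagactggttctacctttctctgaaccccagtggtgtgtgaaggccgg
The first window held 0 and the second 6 matches to GGAA on either strand, and the Ikzf5 window (chr7:131410429-131410728, minus strand) held 3. These core letters were present in 95.98% of all 32851 windows. The longer ETS-IRF composite, GGAA followed after any 2 bases by GAAA, searched on both strands and containing GGAA, matched in none of the 3 windows and in 2.72% of all windows. The paired IRF letters, GAAA followed after any 2 bases by GAAA, matched in none of the 3 and in 3.44% of all windows. The letters TGGGAA, the core recognised by Ikaros proteins, matched in none of the 3 and in 25.56% of all windows. TGGGAA and the composite both contain GGAA, so neither could match in the first Ikzf1 window, which held 0 of it. A match or its absence describes these letters in these windows and no binding.

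Ikzf5, the Pegasus gene, had 2 probe sets that lay above the filter on all 6 arrays and did not move together. Probe set 1429431_at read 257.4 and 143.5 in IRF4/8 DKO, 185.3 and 1028 in IRF8 KO, and 282.8 and 286.1 in WT. A single array, IRF8 KO replicate 2 (male), stood far above the other 5. Probe set 1436554_at read 304.9 and 246.3 in IRF4/8 DKO, 177.8 and 254.2 in IRF8 KO, and 477.3 and 278.4 in WT, and did not show that high array. The log2 fold change in IRF8 KO was 0.61 for 1429431_at (95% interval -1.03 to 2.25, limma adjusted p = 0.757) and -0.75 for 1436554_at (-1.79 to 0.29, limma adjusted p = 0.519), with opposite signs, and only the second had knockout arrays clear of WT. Without IRF8 KO replicate 2 the first was -0.59. In IRF4/8 DKO against WT the log2 fold changes were -0.54 for 1429431_at, whose arrays did not overlap WT, and -0.40 for 1436554_at, whose arrays did (limma adjusted p = 0.89 and 0.868). Over the 6 arrays the log2 values of these probe sets correlated at r = 0.13, against r = 0.94, 0.97 and 0.97 among the 3 of Ikzf2 and r = 0.81 between the pair of Ikzf1, given as a description of probe sets that share the same arrays.

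Ikzf4, the Eos gene, was at the edge of detection in all genotypes. Its tested probe set, 1457342_at, read 28.3 and 20.1 in IRF4/8 DKO, 25.9 and 19.4 in IRF8 KO, and 9.61 and 28.9 in WT, so that the WT arrays enclosed all 4 knockout arrays. Its log2 fold change was 0.29 in IRF4/8 DKO (95% interval -0.69 to 1.28, limma adjusted p = 0.904) and 0.23 in IRF8 KO (-0.76 to 1.22, limma adjusted p = 0.861). The other Ikzf4 probe sets, 1438274_at and 1460664_at, read 1 to 21.4 and were below the filter on every array. Of these, 1460664_at read 3.50 and 5.32 in IRF4/8 DKO, 10.4 and 21.4 in IRF8 KO, and 5.37 and 1 in WT, and was not tested.

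The addition of IRF4 loss was examined as IRF4/8 DKO against IRF8 KO, where limma called 0 of 29783 probe sets (0%), with 2538 (8.52%) at an unadjusted p under 0.05, of which 0 belonged to the family. The Ikzf2 probe set 1437542_at was lower in both IRF4/8 DKO arrays than in both IRF8 KO arrays, with a log2 fold change of -0.90 ± 0.45 SE (95% interval -1.92 to 0.13, limma adjusted p = 0.62). Probe set 1456956_at was placed the same way (-0.65, 95% interval -1.65 to 0.36), and 1421643_at was not (0.11, -0.89 to 1.11). Non-overlapping arrays in the lower direction were found for 17.3% of all tested probe sets, and in the higher direction for 19.3%. Ikzf3 had a log2 fold change of 0.46 (95% interval -0.46 to 1.37, limma adjusted p = 0.765), with the IRF4/8 DKO arrays above the IRF8 KO arrays. Most of these values lie near the pseudocount and the 40th percentile, which limits what can be resolved between the knockout genotypes, and an order of IRF4/8 DKO and IRF8 KO is not established for any member. For the 3 Ikzf2 probe sets and Ikzf3 probe set 1436649_at every knockout array lay below WT. This placement was found for 25.3% of all tested probe sets in IRF4/8 DKO and 25.9% in IRF8 KO. Probe sets 1421643_at, 1456956_at and 1436649_at entered the test only through the WT arrays, so their placement is not support for a difference. For Ikzf1, Ikzf4 and Ikzf5 no pair of genotypes passed the test.

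Genes of other cell types moved with Ikzf2 and Ikzf3, and in RNA from a sorted population fewer cells of a type and less RNA per cell cannot be told apart. Stem and progenitor markers had a summed intensity of 353 to 1104 in IRF4/8 DKO and 1041 to 1052 in IRF8 KO, against 4292 to 7798 in WT. The stem markers Mecom, Tek, Slamf1 and Gfi1b entered the test only through the WT arrays, where they are high. A count of lower members or a call on such a gene is therefore not support for a difference. All 10 measured of 12 listed were lower in both knockout genotypes, with median log2 fold changes of -2.62 and -2.35, against -0.04 and -0.06 over all tested probe sets. Of these, Gata2, a stem and mast cell transcription factor gene, and Tek, the angiopoietin receptor gene, had log2 fold changes of -4.60 and -3.74 and fell in IRF4/8 DKO (adjusted p from limma of 0.0285 and 0.0225), and Tek also fell in IRF8 KO (-3.56, limma adjusted p = 0.0423). This last call held under 6 of 17 alternatives, with limma adjusted p from 0.0529 to 0.139 in the processing and model settings that ended it and up to 0.645 on leaving out 1 array (without WT replicate 1). The highest members by level were the homeobox gene Hoxa9 and the leucine zipper gene Hlf, at -2.64 and -2.60 in IRF4/8 DKO and -1.90 and -2.17 in IRF8 KO (limma adjusted p from 0.189 to 0.281).

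Megakaryocyte markers summed to 98.9 and 121 in IRF4/8 DKO and 1709 and 592 in IRF8 KO, against 4791 and 1174 in WT. Of the 6 measured of 8 listed, Pf4 (platelet factor 4) and Cavin2 fell in IRF4/8 DKO (limma adjusted p = 0.0261 and 0.0443). In IRF8 KO 0 passed. Over all tested probe sets the test called 0.299% in IRF4/8 DKO against WT and 0.0302% in IRF8 KO against WT. Gp9 and Gp5 overlapped WT in IRF4/8 DKO, at log2 fold changes of -0.22 and -0.64. Mast cell, basophil and eosinophil markers summed to 477 and 584 in IRF4/8 DKO and 3987 and 1486 in IRF8 KO, against 11357 and 7286 in WT. All 8 were lower in both. The mast cell protease gene Cpa3, the IgE receptor subunit gene Ms4a2 and the eosinophil granule gene Prg2 fell in IRF4/8 DKO. Their limma adjusted p were 0.02, 0.0447 and 0.0285, and 0 genes of this list passed in IRF8 KO. Erythroid markers summed to 6177 and 4425 in IRF4/8 DKO and 4136 and 4004 in IRF8 KO, against 8363 and 6766 in WT. Most of these sums in the knockouts came from the transferrin receptor gene Tfrc, at 5942 and 4271 in IRF4/8 DKO and 3336 and 3777 in IRF8 KO, against 3158 and 4677 in WT. Over the 6 measured erythroid genes the median log2 fold change was -2.39 in IRF4/8 DKO and -1.97 in IRF8 KO. Gata1, which is in that median, entered the test only through the WT arrays, where it is high. The median is therefore not support for a difference. The carbonic anhydrase gene Car2 was at -4.75 and -3.35, and 0 of 6 passed the test in either (limma adjusted p = 0.0518 and 0.128 for Car2). The WT array with the higher Ikzf2 signal, replicate 1, was also the one with the higher sum in each of these 4 lists. This was not particular to them. Replicate 1 was also higher for T cell, B cell, NK cell, dendritic cell, monocyte and macrophage, lymphoid priming and other corepressor genes. Sums of GMP, neutrophil, NuRD and Ikaros protein turnover genes were higher on replicate 2. The median over all probe sets was 45.27 on WT replicate 1 and 41.65 on WT replicate 2. The files list no value at 0 or below, and the lowest marker values here were near 1, among them Cavin2 at 3.10 and 1 in IRF4/8 DKO. The part of these cell types in the Ikzf2 values was not tested.

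**Figure D3:**
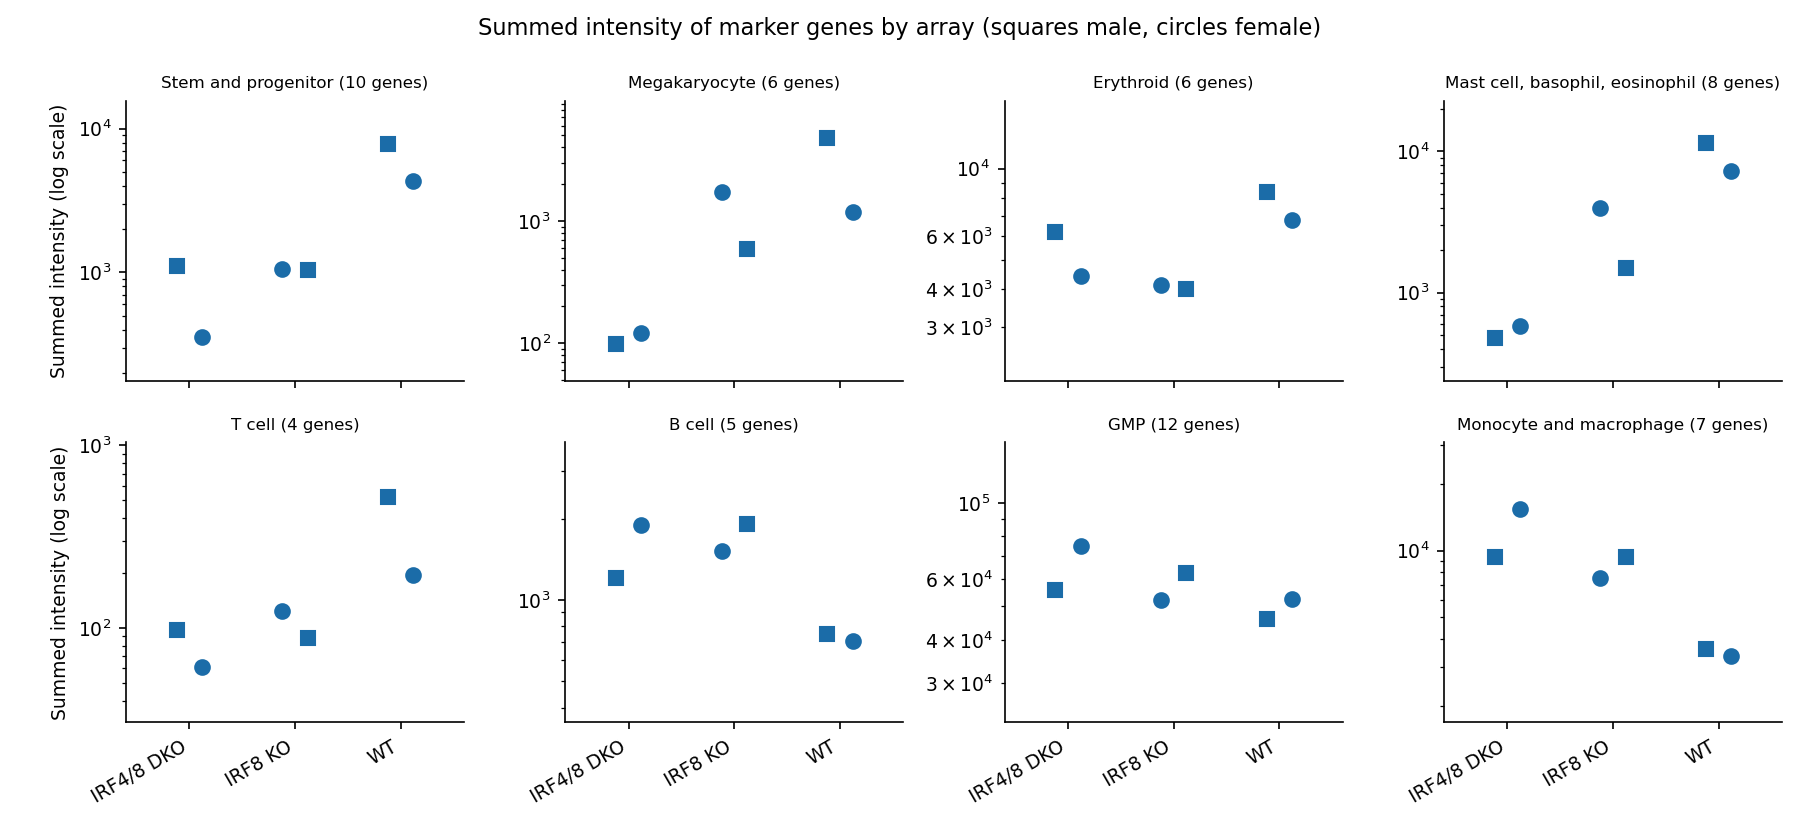
Summed intensity on log axes of the measured genes of 8 marker lists, with 1 point per array (squares male, circles female). Stem and progenitor, mast cell, basophil and eosinophil, and T cell sums are lower on all knockout arrays than in WT. Most of the WT T cell sums are Lat and Thy1. On the knockout arrays B cell sums, most of which are Vpreb1 there, and monocyte and macrophage sums are higher.

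For Ikzf3, lymphocyte markers were set beside it. T cell markers summed to 97.4 and 60.8 in IRF4/8 DKO and 123 and 87.8 in IRF8 KO, against 519 and 195 in WT, with 4 of 9 listed genes measured and 0 past the test. Most of the WT sums came from Lat, at 240.0 and 82.0, and Thy1, at 201.5 and 59.5. Lat entered the test only through the WT arrays. Cd8a alone was higher in IRF8 KO, at 62.2 and 62.4 against 47.5 and 31.1 in WT, and it overlapped WT in IRF4/8 DKO. The defining T cell genes Cd3d, Cd3e and Cd3g, and the regulatory T cell gene Foxp3, did not pass the filter on low values. B cell markers summed to 1202 and 1898 in IRF4/8 DKO and 1518 and 1915 in IRF8 KO, against 746 and 705 in WT, with 5 of 9 measured and 0 past the test. These genes did not move together. Vpreb1, a surrogate light chain gene, made up most of the higher sums, at 668.0 and 1006 in IRF4/8 DKO and 770.9 and 1275 in IRF8 KO, against 186.8 and 185.3 in WT. Igll1 and Cd79b were also higher, with log2 fold changes of 0.48 and 0.47 in IRF4/8 DKO and 1.26 and 0.18 in IRF8 KO. The B cell receptor subunit gene Cd79a had log2 fold changes of -0.14 in IRF4/8 DKO and -0.53 in IRF8 KO, and Cd22 of -0.44 and -0.30. The part of lymphocytes in the Ikzf3 values was not tested.

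The genes closest in pattern to each member were named by the highest Pearson r of log2 values over the 6 arrays among 13266 other genes, as a description. For Ikzf2 these were Hbb-b2, a beta-globin gene whose probe set near-identical globin copies may also bind (r = 0.995), Dach1, a transcription factor gene (0.994), and 4930415O20Rik (0.994). Dach1 read 94.3 and 42.7 in IRF4/8 DKO and 203.4 and 73.6 in IRF8 KO, against 2272 and 1225 in WT. For Ikzf3 they were Urb2 (0.992), Krit1 (0.989) and Rai2 (0.983). For Ikzf1 they were Tedc2, Ino80b and Dcun1d3 (0.996, 0.996 and 0.995), for Ikzf5 Iftap, Slc12a7 and 4930579G18Rik (0.993, 0.99 and 0.988), and for Ikzf4 Galnt3, Vamp4 and Atp23 (0.98, 0.963 and 0.957). Values this high also occurred for members that did not differ between genotypes, and all rest on the same 6 arrays.

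Genes for proteins that act with the family were examined next. The NuRD complex, through which Ikaros proteins repress and activate targets, had all 13 listed genes measured and 0 past the test in any comparison, with a median log2 fold change of -0.06 in IRF4/8 DKO and -0.16 in IRF8 KO. Its highest members by level, the histone-binding genes Rbbp4 and Rbbp7, had log2 fold changes of -0.06 and -0.17 in IRF4/8 DKO, which were 0.17 and 0.05 after median centring, and of -0.18 and -0.19 in IRF8 KO. Other corepressor and remodeller genes had 9 of 9 measured and 0 past the test, with medians of 0.02 and 0.28. Among them Sin3b, of the Sin3 corepressor, was at 0.14 and -0.23, and Smarca4, the BRG1 ATPase, at 0.26 and 0.78 in IRF4/8 DKO and IRF8 KO, the last resting on IRF8 KO replicate 2 (-0.35 without it).

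Genes for the turnover and phosphorylation of Ikaros proteins included Crbn, which codes for cereblon, the substrate receptor through which thalidomide analogues direct human Ikaros and Aiolos to degradation. Of 11 listed genes 10 were measured and 0 passed, with medians of -0.13 in IRF4/8 DKO and -0.02 in IRF8 KO. The highest by level, the protein phosphatase subunit genes Ppp1cc and Ppp1cb, were at 0.06 and 0.28 in IRF4/8 DKO (-0.05 for Ppp1cc after quantile normalization) and 0.08 and 0.46 in IRF8 KO. All limma adjusted p of these lists lay at 0.341 or above in the comparisons against WT.

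**Figure D4:**
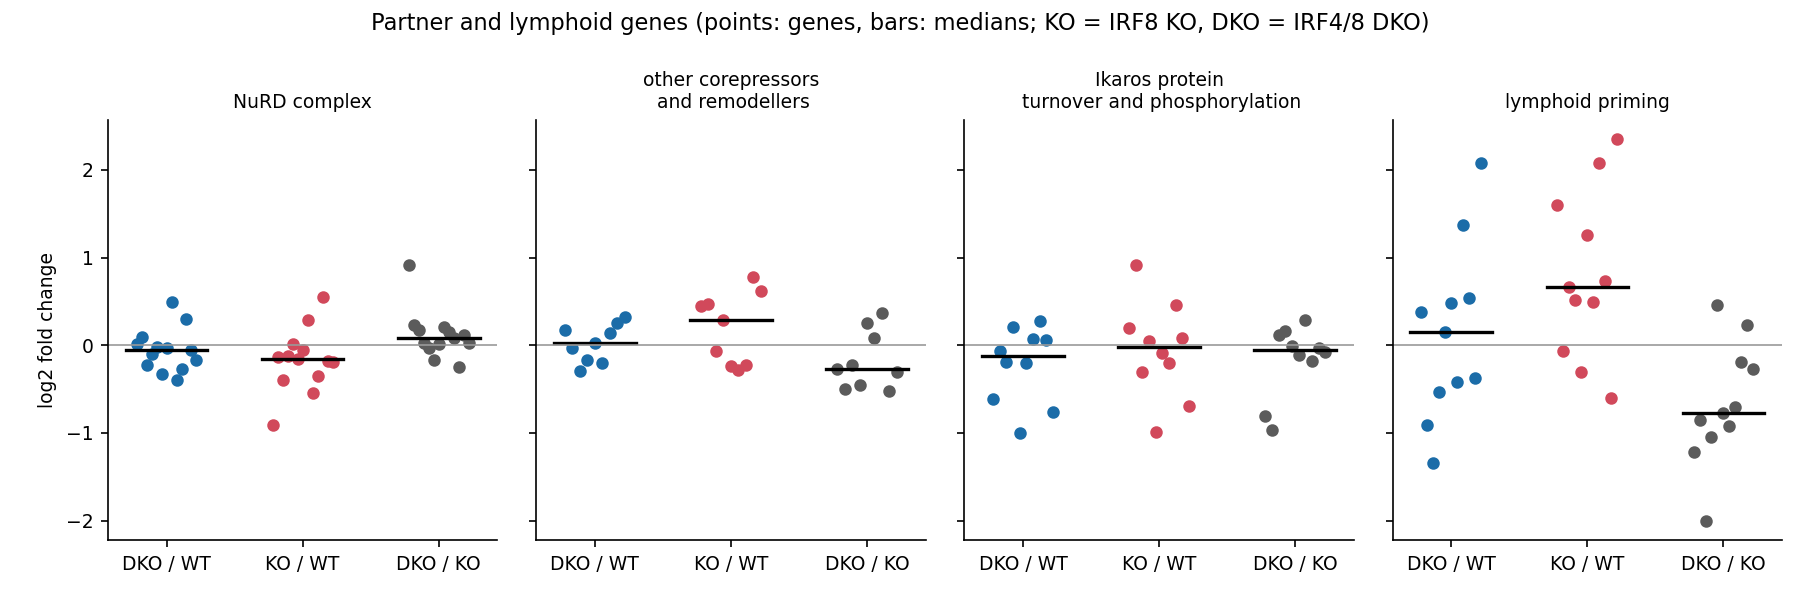
Log2 fold change of each measured gene (points) and the list median (bars) for 3 lists of proteins that act with the Ikaros family and for lymphoid priming genes, for each pair of genotypes. NuRD genes lie between -0.91 and 0.92, and lymphoid priming genes reach 2.35 in IRF8 KO against WT.

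Lymphoid priming genes, which Ikaros is known to support in early progenitors, had 11 of 17 listed genes measured and 0 past the test, with medians of 0.15 in IRF4/8 DKO and 0.66 in IRF8 KO against WT and -0.78 in IRF4/8 DKO against IRF8 KO. The highest by level were Satb1, a chromatin organiser, and Notch1, a receptor of T lineage commitment. Notch1 read 867.9 and 669.0 in IRF4/8 DKO and 1867 and 837.0 in IRF8 KO, against 282.5 and 296.3 in WT. Its log2 fold change was 1.37 in IRF4/8 DKO and 2.07 in IRF8 KO (limma adjusted p = 0.38 and 0.122). Satb1 was at 0.54 and 0.73 (limma adjusted p = 0.746 and 0.417). Other listed genes went the other way. In IRF4/8 DKO 3 genes had arrays clear above WT and 3 clear below it, against 18.3% and 25.3% of all tested probe sets. The 3 below were Dntt, Ccr9 and Tcf3 (log2 fold changes -1.34, -0.92 and -0.37). In IRF8 KO 5 were clear above and 1 below, which was Tcf3 at -0.61. The lower placement was found for 25.9% of all tested probe sets there. Rag1, Rag2, Pax5 and Ptcra did not pass the filter. Of the genes measured, 2 (Igll1 and Vpreb1) are also in the B cell list.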

How the data were processed

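Each deposited file column holds the intensity values of 1 array. The authors obtained them with dChip 1.3 from the difference between matched and mismatched probes, after normalization, per the series' design text. The sources used here do not state the normalization method, the baseline array or how low values were treated. Values ran from 0.69 to 16563.28, and 838 to 893 per array equalled 1 exactly. Precision is limited by the number of arrays.

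Gene symbols came from GEO's platform annotation, updated against RefSeq. The 3 genotypes were fitted together on log2(intensity + 10.5), 10.5 being the 25th percentile of all values, with limma 3.58.1 in R 4.3.3 (trend on mean level, no covariates, 3 residual and 5.84 prior degrees of freedom), and p-values were adjusted by Benjamini-Hochberg over all 29783 tested probe sets. The code was tested on simulated data. A gene of a list was represented by its tested probe set with the highest mean. Named were all family probe sets, the 3 genes most like each member, and of each list the genes past the threshold (at most 4 per comparison) and the 2 of highest level. Cd34, Fcgr3, Kit, Mecom, Slamf1, Gfi1b, Gp5, Gp9, Gata1, Cxcr2, Crbn, Lat, Cd79a, Cd22, Dntt, Ccr9 and Tcf3 fall outside that rule. Genes named as unmeasured or shared between lists do so too. These genes were picked with their values already known. The members and lists were chosen with earlier results of these data known. Alternatives were 2 other pseudocounts, 2 other filters, quantile normalization, median centring, no variance trend, fits of the compared genotypes only, blocks for replicate number and sex, age as a covariate, and leaving out each array.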

Additional observations from a re-analysis of the deposited data

Results flagged for a closer look

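With 1 array per sex and genotype, differences from WT that ran in opposite directions in male and female mice were looked for in the representative probe set of each member, and these differences between the sexes were not tested. For Ikzf5 probe set 1429431_at in IRF8 KO against WT the log2 difference was 1.82 between the male arrays and -0.60 between the female arrays. For Ikzf1 probe set 1436312_at in the same comparison it was 0.16 and -0.12. For Ikzf4 probe set 1457342_at the male difference was 0.57 and the female one -0.11 in IRF8 KO against WT. In IRF4/8 DKO against WT its male difference was 0.95 and its female one -0.36. For Ikzf2 and Ikzf3 the male and female differences had the same sign in both comparisons against WT.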

How the results depend on the processing

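Of the family, 2 probe sets were called in IRF4/8 DKO against WT, both of Ikzf2. The count was 1 with a pseudocount of 39.23, 1 with the filter at the 60th percentile, 1 after median centring, 1 without a variance trend, 0 without the filter, 0 with sex as a block, 4 with only the compared genotypes fitted, and 0 to 4 on leaving out 1 array. The family count moved with the whole array: 0.299% of all tested probe sets were called, 0% with sex as a block or without a WT or IRF4/8 DKO array, 1.6% with only the compared genotypes and at most 1.63% without an IRF8 KO array. In IRF8 KO against WT the count was 0, with 2 under age as a covariate (0.457% of all called) and 0 to 4 on leaving out 1 array (0% to 3.66% of all called). The list genes called in IRF4/8 DKO against WT each kept that call under 7 to 12 of 17 alternatives, and in IRF8 KO against WT Tek did under 6 and Ly86 under 15. An array left alone in its genotype was assumed to vary like the others. In IRF4/8 DKO against IRF8 KO it was 0 throughout. The replicate number as a block gave 2 in IRF8 KO against WT and 2 in IRF4/8 DKO against WT (0.702% and 0.725% of all called), but deviations of same-numbered arrays correlated at only 0.04, 0.19 and 0.21 between genotypes, so the numbers are not taken to pair the mice. Median centring moved the median of all tested probe sets to 0.18 in IRF4/8 DKO against WT, from -0.04. The log2 fold changes of Ikzf2 and Ikzf3 against WT kept their sign under every alternative. Those of uncalled members changed sign as follows. In IRF8 KO against WT, Ikzf1 probe set 1436312_at was -0.13 after quantile normalization and -0.010 with age, and leaving out 1 array gave -0.15 to 0.19 for it, -0.14 to 0.40 for 1421303_at, -0.26 to 0.72 for Ikzf4, -0.59 to 1.82 for Ikzf5 probe set 1429431_at, -0.44 to 0.050 for Rbbp7 and -0.35 to 1.90 for Smarca4. In IRF4/8 DKO against WT it gave -0.33 to 0.60 for Ikzf1 1421303_at, -0.19 to 0.78 for Ikzf4, -0.013 to 0.12 for Ppp1cc, -0.19 to 0.075 for Rbbp4 and -0.59 to 1.10 for Smarca4, while centring gave 0.17 for Rbbp4 and 0.053 for Rbbp7, and quantile normalization -0.046 for Ppp1cc. In IRF4/8 DKO against IRF8 KO it gave -0.46 to 0.47 for Ikzf1 1421303_at, -0.21 to 0.43 for Ikzf2 1421643_at, -0.11 to 0.23 for Ikzf4 and -2.35 to 0.053 for Ikzf5 1429431_at. Except where fewer arrays or fewer probe sets entered the fit, the cause was not tested. Signals near the background of the arrays limit the comparison of the knockout genotypes for Ikzf2 and Ikzf3 and every statement on Ikzf4.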

Other observations

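The remaining marker lists were not tied to a family member. Monocyte and macrophage genes summed to 9318 and 15400 in IRF4/8 DKO and 7522 and 9381 in IRF8 KO, against 3615 and 3358 in WT. In IRF4/8 DKO, 4 of 7 measured genes passed the test as higher and 1 (Ly86) as lower, where 0.299% of all tested probe sets were called. Cd14, 1 of the higher genes, entered the test only through the IRF4/8 DKO arrays, and Ly86 only through the WT arrays. The count is therefore not support for a difference. Neutrophil genes summed to 20972 and 45718 in IRF4/8 DKO and 25525 and 47233 in IRF8 KO, against 12474 and 30222 in WT, with overlapping arrays. Of the 9 measured, only Mmp8 passed the test, as higher in IRF4/8 DKO (limma adjusted p = 0.0416). It entered the test only through the knockout arrays, where it is high, so this call is not support for a difference. Cxcr2 was lower in IRF8 KO (log2 fold change -1.36) and did not pass (limma adjusted p = 0.26). Dendritic cell genes (5 of 9 measured) summed to 1158 and 1258 in IRF4/8 DKO, 1496 and 1499 in IRF8 KO, and 1472 and 1224 in WT. NK cell genes had 2 of 6 measured and 0 past the test. GMP genes summed to 55851 and 74985 in IRF4/8 DKO and 52228 and 62625 in IRF8 KO, against 46013 and 52710 in WT, with 0 of 12 past the test.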
